A study of Canis lupus familiaris with 5 samples.

Results

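CRX, GSC, PRRX2 and RAX are 4 homeobox genes of the PRD class, and their surroundings were examined in maps of DUX4, DUXC and DUXC-ALT binding to dog DNA. Every peak was taken whose recorded nearest gene carries one of these symbols, by the dog name or, failing that, by the name of the human homolog. The 4 genes were among 10804 genes named in the lists, and 8 of 92417 listed peaks were recorded for them. All 4 symbols were also found in the RefSeq dog gene table.

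Chromatin immunoprecipitation followed by sequencing (ChIP-seq) was used to measure binding in immortalized canine myoblasts carrying a doxycycline-inducible transgene. The transgene encoded human DUX4 or 1 of 2 dog proteins, DUXC or DUXC-ALT, and per the labels' protocols doxycycline was given at 1 µg/ml for 24 hours. Luciferase lines, 1 polyclonal and 1 monoclonal, were labelled as not inducible and served as controls. Both dog proteins were chimeras carrying the C-terminal domain of human DUX4, against which the antiserum was raised. DUXC-ALT was expressed from a polyclonal line and the other 2 factors from monoclonal lines, so factor and clonality cannot be told apart. Each of the 5 groups had 1 library, so no difference has a replicate check, no test was possible and all values below describe single libraries. The lists counted 85825 DUX4, 6031 DUXC and 561 DUXC-ALT peaks, and the read depth behind them is unknown. Values of different lists were scaled differently and do not rank the factors.

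PRD-class genes encode transcription factors with a homeodomain related to that of the Drosophila protein Paired. The double homeobox factors DUX4 and DUXC belong to the same class, so the binding described here is that of PRD-class factors near genes of their own class. CRX controls photoreceptor genes, RAX is needed to form the eye field, GSC (goosecoid) marks the organizer of the gastrula, and PRRX2 acts in limb and craniofacial mesenchyme. The homeodomains of CRX and GSC carry lysine at the residue that sets base preference, where those of RAX and PRRX2 carry glutamine.

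The 4 genes differed in which factor was listed nearby. DUX4 peaks were recorded for CRX (3 peaks), PRRX2 (2) and GSC (1), and DUXC peaks for CRX (1) and RAX (1). RAX had no DUX4 peak, GSC and PRRX2 had no DUXC peak, and none of the 4 had a DUXC-ALT peak. At any distance 3 of the 4 genes thus had a DUX4 peak, 2 a DUXC peak and 0 a DUXC-ALT peak, beside 97.5%, 23.8% and 2.47% of all named genes. Only genes nearest to some listed peak and recorded with a symbol are named. Most listed peaks are DUX4 peaks, so 97.5% is not a share of all dog genes. Counting peaks within 5 kb of a transcription start site (TSS), 3 of 4 genes had a DUX4 peak, against 38.3% of all named genes. For DUXC it was 1 of 4 against 5.48%, and for DUXC-ALT 0 of 4 against 0.463%. The DUX4 count includes PRRX2, whose recorded TSS is in doubt, and CRX through a low peak. The genes were proposed with earlier counts of nearby peaks known, so these shares are not evidence that the 4 genes stand apart.

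**Figure D1:**
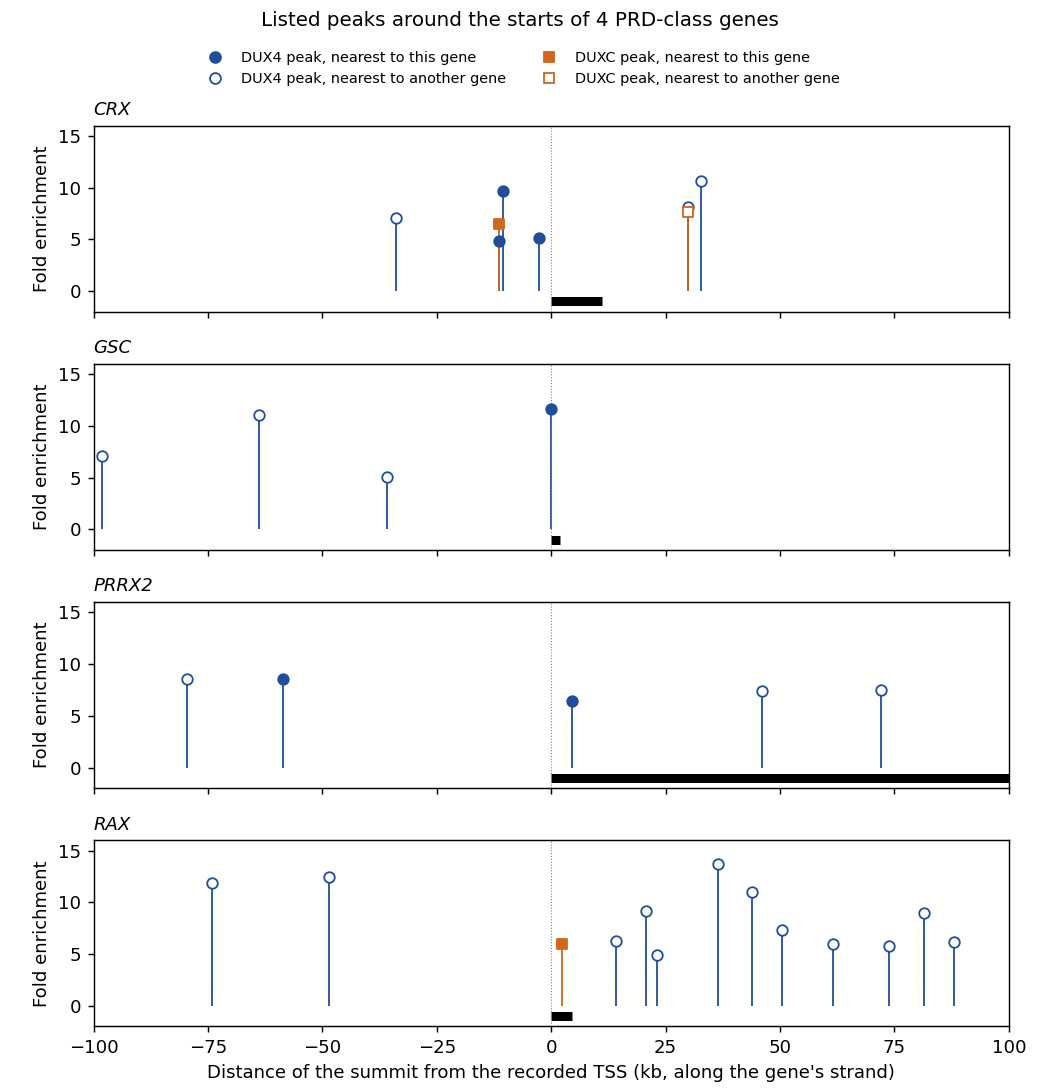
Fold enrichment (vertical axis, ratio over local background) of every listed peak against the distance of its summit from the TSS (horizontal axis, kb) of each gene, with the direction of transcription to the right and the recorded gene span as a black bar that ends at the plot's edge for PRRX2. Filled symbols are peaks recorded for the gene itself and open symbols are peaks recorded for another gene. DUX4 circles lie close to the recorded starts of CRX, GSC and PRRX2, while at RAX the square nearest the start is a DUXC peak. The recorded start of PRRX2 is in doubt.

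GSC carried the only peak that covered the start of 1 of the 4 genes. The gene (ENSCAFG00000017684.4) lies on the minus strand of chromosome 8 between 63705314 and 63707175 on the canFam3 build. The DUX4 peak ran from 63707154 to 63707468, with its summit 151 bp upstream of the TSS, a pileup (signal height at the summit) of 26.6 and a fold enrichment of 11.6. Fold enrichment is the authors' ratio of summit height to local background. This was the highest fold enrichment of the 6 DUX4 peaks of the 4 genes, and 86.2% of all DUX4 peaks had a lower one.

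Peaks over a TSS were rare in the DUX4 list: 0.246% of all its peaks, and 0.879% of named genes had one. Among the 95 named genes with such a peak, 82.1% had a lower fold enrichment than GSC, and the median was 7.93. The recorded repeat at the GSC peak was a G-rich low-complexity stretch that ended 87 bp short of the summit. Local background there was 1.37 on the pileup scale, 1.26 times the floor of the list (percentile 1 of all local backgrounds).

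No DUXC peak accompanied the GSC site, the nearest DUXC peak being 105868 bp away. Within 100 kb of the GSC start the DUX4 list had 4 summits, where the median over all named genes was 7. The other 3 lay 35.9, 63.8 and 98.2 kb upstream of GSC and were recorded for genes without a symbol. Fewer than 4 DUX4 summits within that distance were found for 13.6% of named genes. The highest ratio of the 4 was at the GSC start (11.6, pileup 26.6). The peak 63.8 kb upstream was close to it in ratio (11.0) and higher in pileup (32.1).

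CRX was the only one of the 4 genes with peaks in 2 lists, and they met at 1 site. CRX (ENSCAFG00000004068.2) lies on the plus strand of chromosome 1 between 108249911 and 108261015. All 4 of its peaks were upstream of the gene and none lay inside it.

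The site shared by both factors was about 11 kb upstream of the CRX start. The DUX4 peak there ran from 108238436 to 108238683, with a pileup of 18.3 and a fold enrichment of 4.83. The DUXC peak ran from 108238395 to 108238840, with a pileup of 23.0 and a fold enrichment of 6.45. The DUX4 peak lay wholly inside the DUXC peak, covering 55.6% of it, and the summits were 25 bp apart. Neither peak had a recorded repeat. Of all DUX4 peaks 3.92% overlapped a DUXC peak, and of all DUXC peaks 55.7% overlapped a DUX4 peak, beside 1 of 6 and 1 of 2 for the 4 genes.

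The shared CRX site ranked differently by height and by ratio. A lower pileup was found at 86.5% of DUXC peaks but a lower fold enrichment at 37.9%. For the DUX4 peak the same shares were 50.6% and 7.0%. Local background at the site was 3.0 in the DUX4 list and 2.72 in the DUXC list, which is 2.75 and 3.28 times the floor of each list. Above 3 times the floor lay 8.34% of DUXC peaks, this one included. The part of this background in the low ratios was not tested.

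A second DUX4 peak stood 432 bp closer to CRX, from 108239115 to 108239490. It was the strongest of the CRX peaks, with a pileup of 26.6 and a fold enrichment of 9.70, and 75.4% of DUX4 peaks had a lower ratio. Its summit lay in a copy of L1MB4, an old LINE-1 element. The DUXC peak ended 275 bp short of it. DUX4 peaks within 500 bp of another made up 4.25% of that list.

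The DUX4 peak closest to the CRX start was among the weakest. It ran from 108247091 to 108247365 in an L1M5 copy, 2546 bp upstream of the TSS, with a pileup of 13.8 and a fold enrichment of 5.11. A lower fold enrichment was found at 10.9% of DUX4 peaks. CRX therefore counted as a gene with a DUX4 peak within 5 kb through a low peak, while its higher peak stood farther out.

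**Figure D2:**
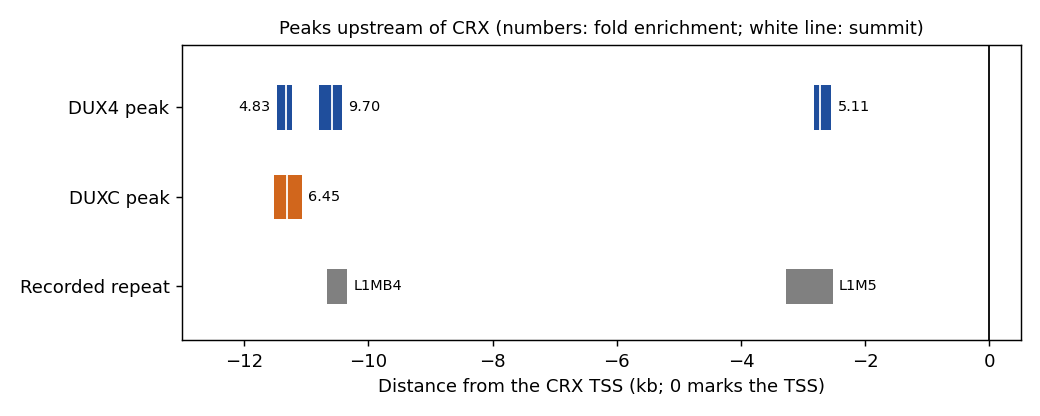
Extent of the DUX4 (blue) and DUXC (orange) peaks recorded for CRX and of the repeats recorded for them (grey), against distance from the CRX TSS in kb; white lines mark summits and numbers give fold enrichment. The DUXC peak covers the farthest DUX4 peak (4.83) and stops short of the stronger one beside it (9.70).

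A further pair of peaks met on the other side of CRX. At 29.8 kb downstream of the CRX start a DUX4 peak (fold enrichment 8.15) and a DUXC peak (7.69) had summits 4 bp apart, both in a SINEC_b1 copy, a carnivore SINE. Both were recorded for a gene without a symbol whose start is 26385 bp downstream of that of CRX. In the RefSeq gene table of another dog assembly, UU_Cfam_GSD_1.0, the gene that follows CRX is TPRX1, itself of the PRD class; whether it is the unnamed gene was not tested. A DUX4 peak 32.6 kb downstream of the CRX start (fold enrichment 10.6) had no DUXC peak over it. Both DUXC peaks within 100 kb of the CRX start thus coincided with DUX4 peaks. Of all named genes, 85.7% had fewer than 2 DUXC summits within that distance and 34.9% had fewer than the 6 DUX4 summits found at CRX.

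PRRX2 had DUX4 peaks in what the lists record as its first intron and far upstream. The gene (ENSCAFG00000019983.4) lies on the minus strand of chromosome 9, and its recorded span runs from 54093166 to 54224620. That span of 131455 bp holds the recorded starts of C9orf50 and ASB6, 42013 and 66587 bp downstream of the PRRX2 start, whereas ASB6 does not overlap PRRX2 in the RefSeq table of the other assembly. The gene model may therefore be too long, and the TSS, the intron and the distances given for PRRX2 hold only as far as it does. The intronic peak ran from 54219959 to 54220435, with its near edge 4185 bp downstream of the TSS, a pileup of 24.8 and a fold enrichment of 6.44. Its summit lay in a copy of MLT1D, a long terminal repeat of the ERVL-MaLR group. Height and ratio again differed in rank: 76.3% of DUX4 peaks had a lower pileup and 33.7% a lower fold enrichment, and local background was 3.0, or 2.75 times the floor.

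The upstream PRRX2 peak ran from 54283107 to 54283398, 58487 bp from the TSS, with a pileup of 22.9 and a fold enrichment of 8.54. It had no recorded repeat, and 64.7% of DUX4 peaks had a lower ratio. It was therefore the higher of the PRRX2 peaks by ratio and the lower by pileup.

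Another 2 DUX4 peaks lay within the recorded span of PRRX2 but nearer to other starts. Whether either belongs to PRRX2 depends on where the gene truly starts and ends, which was not tested. The same holds for both peaks recorded for PRRX2. A peak from 54178395 to 54178703, in a MER117 copy, was annotated to intron 1 of the same PRRX2 transcript but recorded for C9orf50. Its pileup of 28.4 was above those of both peaks recorded for PRRX2, and its fold enrichment was 7.36. A peak with a fold enrichment of 7.52 in an MLT1A copy was recorded for ASB6. No DUXC peak lay within 100 kb of the PRRX2 start, the nearest summit being 210064 bp away.

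RAX showed the reverse of GSC, with a DUXC peak and no DUX4 peak at the gene. RAX (ENSCAFG00000000098.3) lies on the plus strand of chromosome 1 between 16940671 and 16945127. The DUXC peak ran from 16942702 to 16943028, inside the recorded span, with its near edge 2031 bp downstream of the TSS. The lists class it as a promoter peak by distance and give no exon or intron. Its pileup was 13 and its fold enrichment 5.93, and 26.1% of DUXC peaks had a lower ratio. The recorded repeat, an L2a copy, ended 75 bp short of the summit. Local background was 1.36, or 1.64 times the floor.

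DUX4 peaks were plentiful around RAX but all were recorded for other genes. Within 100 kb of the RAX start 12 DUX4 summits were listed, and 89.2% of named genes had fewer. The nearest summit was 14.1 kb downstream of the RAX start, and the closest DUX4 peak was 11620 bp from the DUXC peak. Near neighbours with DUX4 peaks were GRP, which encodes gastrin-releasing peptide, and CPLX4, a complexin gene of retinal synapses. The highest ratio in the window was 13.7, at a peak in intron 3 of GRP, 36.5 kb downstream of the RAX start. For CPLX4 a peak with a fold enrichment of 12.5 was recorded 48.5 kb upstream. Genes with a DUXC peak and no DUX4 peak made up 9.84% of the 2570 named genes with any DUXC peak.

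**Figure D3:**
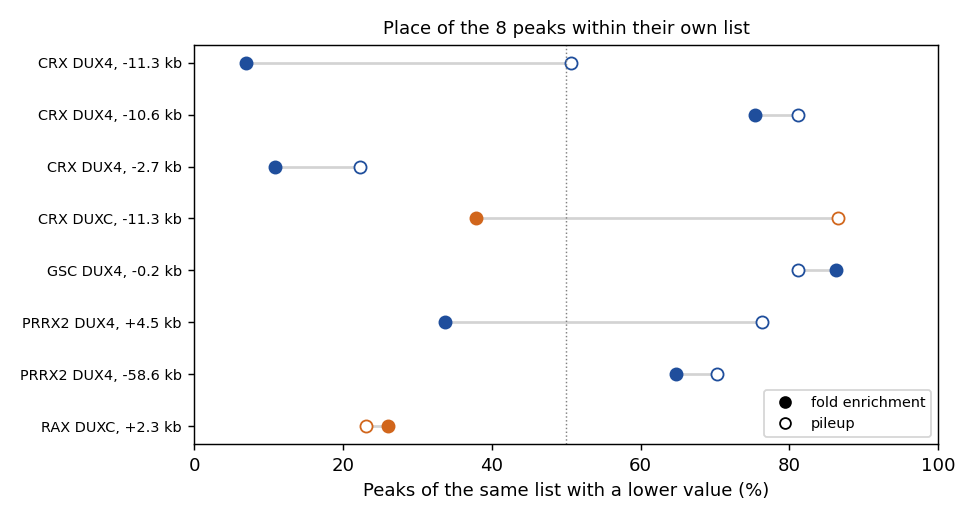
Share of peaks in the same list (horizontal axis, %) with a lower fold enrichment (filled) or a lower pileup (open) than each of the 8 peaks, labelled by gene, list and summit distance from the TSS; blue is DUX4 and orange is DUXC. GSC is highest by ratio (86.2%), and the shared CRX site and the PRRX2 intronic peak are much lower by ratio than by height.

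Across all 6 DUX4 peaks of the 4 genes, fold enrichment ran from 4.83 to 11.6, around a list median of 7.37. Both DUXC peaks were below their list median of 7.02. Summits lay in the recorded repeat at 3 of the 6 DUX4 peaks, beside 47.4% of the whole list, and at 0 of the 2 DUXC peaks, beside 47.8%. The elements at these summits were L1MB4 and L1M5, both LINE-1 copies, and MLT1D, a long terminal repeat. The nearest DUXC-ALT peak was 298740 bp from the RAX peak and 514628 bp from the upstream PRRX2 peak, and farther from the other 6 peaks.

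The wider PRD class was read from a list of 45 genes, of which 25 were named in the peak lists. A gene nearest to no peak, or recorded without a symbol, is not named. Such genes stay out of these counts, as they do for all genes. Of 85825 DUX4 peaks, 40016 were recorded for a gene with a symbol, so the unnamed PRD-class genes are not shown to lack peaks. DUX4 peaks within 5 kb of a TSS were found at 7 of the 25 (28%), beside 38.3% of all named genes, and DUXC peaks at 1 (4.0%, beside 5.48%). The 7 include PRRX2, whose recorded TSS is in doubt. They also include CRX and GSC, and RAX is the 1 gene with a DUXC peak. These 4 genes were proposed with earlier counts of nearby peaks known. Of the other 21 named genes of the class, 4 had a DUX4 peak within 5 kb and 0 had a DUXC peak. DUX4 peaks within 1 kb were found at 3 of the 25 (12%) beside 8.55% of named genes. Those with a fold enrichment of at least 10 within 5 kb were found at 3 (12%) beside 11.4%, and those within 50 kb at 22 (88%) beside 95.2%. GSC is in both counts of 3 genes, and such counts are too few to show that the PRD class lies above or below the named genes. Besides CRX, GSC and PRRX2, the genes with a DUX4 peak within 5 kb included DRGX, a gene of dorsal root ganglion neurons, with a peak of 10.1 at 3250 bp upstream. None of the 9 DUX4 peaks within 5 kb of a PRD-class start overlapped a DUXC peak, where 3.92% of all DUX4 peaks did, and only those at CRX and PRRX2 had the summit in a recorded repeat, beside 47.4% of the list.

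Of 124 DUX4 peaks nearest to PRD-class genes, 67 (54%) were more than 50 kb from the TSS, beside 31.1% of DUX4 peaks recorded for any named gene. That difference was not tested, and several genes hold many of the peaks. For all 124 the median fold enrichment of 7.39 was close to that of the list (7.37). ESX1, a placental gene, had the most DUX4 peaks (24), followed by OTX1 (15), OTX2 (12) and PAX3 (12), with none of them within 5 kb. OTX1 and OTX2, forebrain regulators, are the closest relatives of CRX. Their nearest DUX4 peaks were 8445 bp upstream of OTX1 and 5490 bp downstream of OTX2.

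DUXC peaks were recorded for 9 of the 25 genes, beside 23.8% of all named genes. They made up 11 peaks with a median fold enrichment of 6.45, and 7 of the 11 overlapped a DUX4 peak, beside 55.7% of all DUXC peaks. The strongest (16.1) was 191902 bp downstream of SHOX, a limb growth gene, and a peak of 10.2 was 43702 bp upstream of ESX1. Both overlapped DUX4 peaks, as did those at CRX, DUXA and NOBOX, an oocyte gene. Those at RAX, at LEUTX, a gene of the human cleavage-stage embryo, and at PAX3 and PAX7 did not. PAX3 and PAX7 specify muscle progenitors; their DUXC peaks lay in introns, 64034 and 79935 bp downstream of the TSS, with fold enrichments of 5.93 and 6.42.

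**Figure D4:**
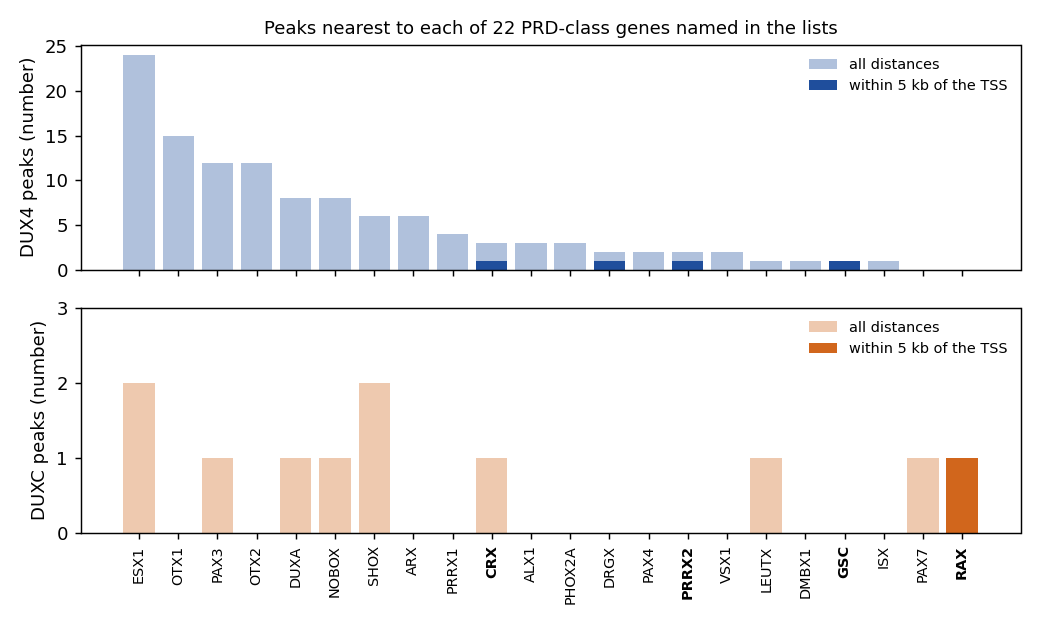
Number of peaks (vertical axes) recorded as nearest to each of 22 of the 25 PRD-class genes (horizontal axis, ordered by DUX4 peaks) in the DUX4 list (top) and the DUXC list (bottom), with peaks within 5 kb of the TSS in full colour and the 4 genes described in detail in bold. Near peaks are few beside the totals, and RAX is the gene with a near DUXC peak.

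By numbers of recorded peaks in the 3 lists, RAX was most like PAX7 (0 DUX4, 1 DUXC and 0 DUXC-ALT peaks in each). GSC matched DMBX1 and ISX, with 1 DUX4 peak each, and PRRX2 matched DRGX and PAX4, with 2 each, as did VSX1. No other PRD-class gene had the numbers of CRX (3, 1 and 0); the closest were ALX1, LEUTX and PHOX2A. Likeness was the sum over the 3 lists of the difference in log2(number + 1), and it was 1.00 for these and 0 for the matches above. Such numbers were common among all named genes: 28.4% shared those of GSC, 15.0% those of PRRX2, 2.16% those of RAX and 2.15% those of CRX.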

How the data were processed

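The 3 deposited peak lists, 1 per factor, were used on canFam3; the submitters' processing notes also name CASAVA, BWA 0.7.10 and MACS2 2.1.0, with no role or order. Peaks are named after single libraries and were taken as called per library. The control, the threshold and later filters are not given in the sources used here. The deposited pileup was read as signal height at the summit. Local background was computed from the deposited fold enrichment, read as a ratio of height to background with 1 added to both, as (pileup + 1) / fold enrichment − 1. Significance per peak is the caller's, deposited as −log10 of the p-value and of the q-value, and the smallest −log10 q was 2.03 in the DUX4 and DUXC lists and 2.08 in the DUXC-ALT list. Distances, gene annotation and repeats are the authors'. Distance to a TSS runs from the nearer peak edge.

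Peaks overlapped when they shared at least 1 bp. Counts and ranks were computed with Python 3.11.15, numpy 2.4.6 and pandas 2.3.3, and plots with matplotlib 3.10.9. The overlap and distance code was tested on simulated lists. Named PRD-class genes, some of which are not reported here, were the 4 members, genes with a peak within 5 kb or any DUXC peak, and those most alike in numbers of peaks; OTX1, OTX2 and the genes with the most peaks were named after their values were seen. Neighbours with a start within 50 kb were named, and ASB6 was added later. Members and lists were chosen with earlier results of these data known. Sequence under the peaks was not analysed here.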

Additional observations from a re-analysis of the deposited data

How the results depend on the processing

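Of 72 counts under alternative settings, 55 stayed within 1.5 times the reported count and 17 moved, and all rest on few peaks. The 55 include every count for DUXC-ALT and every overlap with it. These were 0 in all settings, as no DUXC-ALT peak was recorded for these genes, so the 55 do not measure stability. Genes with a DUX4 peak within 5 kb, 3 of the 4 by their recorded TSS, became 1 (GSC) within 1 kb and 1 (GSC) at a fold enrichment of at least 10. Genes with a DUXC peak, 1 of the 4, became 0 within 1 kb, 0 at that fold enrichment and 2 within 50 kb, where CRX was added. For the PRD class the DUX4 count of 7 became 3 within 1 kb, 22 within 50 kb and 3 at that fold enrichment (8.55%, 95.2% and 11.4% of all named genes), and the DUXC count of 1 became 0, 5 and 0 (1.7%, 19.5% and 0.889%). A fold enrichment of at least 10 left 1 of the 6 DUX4 and 0 of the 2 DUXC peaks recorded for the 4 genes, and 0 overlaps in either direction. Counting any peak within 50 kb of the 4 starts gave 16 DUX4 peaks. With any contact between peak and repeat counted, 1 DUXC peak was in a repeat in place of 0. Narrower settings give lower counts by construction. Stricter overlap, a −log10 q of at least 5 and dog gene names alone moved none of the counts by over 1.5 times. No paired analysis was possible because each group has 1 library. Depth per library is unknown, so an unlisted peak is not shown to be absent binding.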
